A study of Mus musculus with 6 samples.

Results

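Interferon-stimulated genes were examined in RNA-Seq of adult mouse aortic valves. The set was a fixed list of 39 gene symbols, all of which were among the 23107 genes in the deposited counts, and all 39 passed the minimum count (at least 10 counts in at least 3 libraries) that left 15354 genes to be tested. The valves came from outbred mice at 4 months of age, with 3 libraries for controls and 3 for mutants. The labels call the controls wild type. In the study the control genotypes could also carry either transgene alone. The mutants, caAcvr1:Nfatc1Cre, carried a Cre-activatable transgene for constitutively active Acvr1, a type I receptor for bone morphogenetic proteins, and a Cre knock-in at Nfatc1, which recombines in the endocardium, its derivatives and cells of the leaflet-wall junction. Neither the sex of the mice nor the number of mice in each library is given in the sources used here, so that p-values measure the spread between these libraries, which may be partly technical.

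Interferons are secreted proteins that cells release on sensing viral nucleic acids or on immune activation. Type I interferons signal through Ifnar1 and Ifnar2 to a complex that includes Stat2 and Irf9 and binds the interferon-stimulated response element (ISRE). Interferon gamma signals through Ifngr1 and Ifngr2 and acts at the gamma-activated site (GAS). The induced genes encode antiviral proteins, nucleic acid sensors, GTPases that act on intracellular vacuoles, and parts of the machinery that loads peptides on major histocompatibility complex (MHC) class I molecules. Endothelial cells, fibroblast-like cells and leukocytes can all express them.

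Since these genes share promoter elements, their promoters were searched for both motifs. RefSeq promoters of GRCm38.p6 (250 bases before to 50 after the start) were at hand for 29 of the 39 genes. Mx1, Mx2, Oas2, Usp18, Dhx58, Zbp1, Iigp1, Parp9, Parp14 and Rtp4 had no entry. The ISRE core was taken as GAAA, any 2 bases and GAAA again, or as TTTC, any 2 bases and TTTC on the other strand. It was found in the promoters of 16 of the 29 genes (55.2%), against 3.99% of 27025 genes with a promoter in the same table. GAS, written as TTCNNNGAA, which reads the same on both strands, was found in 9 of the 29 (31.0%), against 9.55%. In 5 genes both were found, and in Bst2 the GAS match overlapped an ISRE match. All 6 GTPase genes with a promoter entry held the ISRE core, whereas 0 of the 3 antigen processing genes did. A match is a description of the letters in this window and not evidence of binding. The windows below are promoter stretches of some of the members with an ISRE core. They are printed 5′ to 3′ on the strand of the gene with ISRE matches in capitals. Ifit1, Oas1a and Bst2 represent the antiviral effectors, Isg15 the ISG15 system, and Gbp3, Igtp and Irgm2 the GTPases. Rsad2 is shown as a member whose highest library was mutant replicate 2.

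Isg15 (GRCm38.p6 chr4:156200860-156200911, minus strand): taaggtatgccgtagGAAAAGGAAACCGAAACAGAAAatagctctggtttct
Ifit1 (GRCm38.p6 chr19:34640770-34640828, plus strand): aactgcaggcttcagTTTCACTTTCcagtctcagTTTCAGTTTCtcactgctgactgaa
Oas1a (GRCm38.p6 chr5:120907526-120907560, minus strand): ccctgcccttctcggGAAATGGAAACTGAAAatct
Bst2 (GRCm38.p6 chr8:71537572-71537617, minus strand): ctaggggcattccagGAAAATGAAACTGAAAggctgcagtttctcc
Gbp3 (GRCm38.p6 chr3:142559984-142560029, plus strand): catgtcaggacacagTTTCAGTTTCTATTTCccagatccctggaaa
Igtp (GRCm38.p6 chr11:58199507-58199546, plus strand): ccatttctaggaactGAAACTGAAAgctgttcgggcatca
Irgm2 (GRCm38.p6 chr11:58214898-58214937, plus strand): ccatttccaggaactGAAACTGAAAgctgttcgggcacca
Rsad2 (GRCm38.p6 chr12:26456548-26456587, minus strand): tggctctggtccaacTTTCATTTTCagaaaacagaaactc

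In Isg15, 3 overlapping matches formed 1 run that began 78 bases before the start. In Ifit1, a pair of separate matches began 104 and 85 bases before the start, and in Oas1a the run began 20 bases before it. Igtp and Irgm2, neighbors on chromosome 11, held the same ISRE letters. The Rsad2 match began 120 bases before the start, so that the ISRE core was there as well.

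Across the valves, the level of the interferon-stimulated genes was set apart in a single library, mutant replicate 1. Of the 39 genes, 37 were highest in that library, where 19.5% of all genes tested had their highest level. The other 2, Rsad2 and Xaf1, were highest in mutant replicate 2, where 16% of all genes peaked, and 0 members peaked in a control or in mutant replicate 3. The summed level of the 39 genes was 933, 893 and 883 CPM (the count scaled for library size by TMM, the measure of level used throughout) in the controls, here and below in the order of replicates 1, 2 and 3, and 1982, 1064 and 827 CPM in the mutants in the same order. The controls were thus close to each other, mutant replicate 1 lay above every other library, and mutant replicate 3 lay below all controls. Relative to the mean of the controls, the median member stood at a log2 ratio of 1.06 in mutant replicate 1, 0.21 in mutant replicate 2 and -0.15 in mutant replicate 3, and the median over all genes tested lay between -0.022 and -0.0024 in the 6 libraries.

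**Figure D1:**
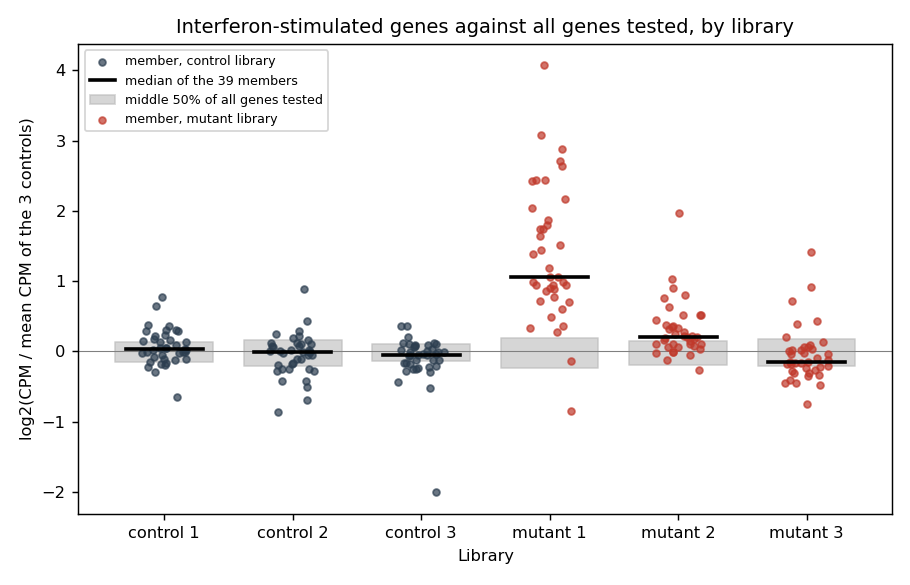
Each point is 1 of the 39 interferon-stimulated genes in 1 library, on the y axis as the log2 ratio of its CPM to the mean CPM of the 3 controls. Black bars are the medians of the members and grey boxes the middle 50% of all genes tested. The members of mutant replicate 1 have a median of 1.06 and run from -0.84 to 4.07, while the medians of the other libraries stay between -0.15 and 0.21.

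Comparing mutants with controls, all 39 genes had a log2 fold change above 0, where 52.2% of all genes tested did. Their median log2 fold change was 0.49, against 0.0097 over all genes tested, and 19 of them were above 0.5, where 5.99% of all genes were. In the edgeR quasi-likelihood test 0 of the 39 had an adjusted p under 0.05 (all 0.999), where 0% of all genes did, and in DESeq2 0 of the 39 did, where 0.169% of all genes did. At an unadjusted p under 0.05, edgeR had 4 members higher in the mutants (Mx1, Oas1a, Usp18 and Zbp1) and 0 lower, against 1.59% and 1.86% of all genes. DESeq2 had 11 higher at that level, against 2.16%. In 4 members (Mx1, Oas1a, Gbp3 and Ifi35) every mutant lay above every control, where 4.04% of all genes did so, and in 0 members every mutant lay below, where 4.83% did. With 3 libraries against 3 an exact permutation test cannot give a two-sided p under 0.1.

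The difference rested on mutant replicate 1. Without it the median log2 fold change of the 39 genes was 0.088, 30 were above 0 and 9 below, where 49% of all genes were above 0. The 9 were Ifit3, Oasl2, Ifi44, Dhx58, Bst2, Gbp2, Irgm2, Psmb9 and Tap1, with values from -0.27 to -0.035. Members higher in every mutant than in every control then numbered 4, where 9.83% of all genes did so. Without mutant replicate 3, by contrast, 22 members did so, against 8.11% of all genes. Leaving out mutant replicate 2 gave 6 such members (9.55% of all genes), and leaving out control replicates 1, 2 and 3 in turn gave 7 (8.83%), 7 (8.45%) and 5 (7.85%). In these fits 37 of 39 members had a log2 fold change above 0 without mutant replicate 2 (50.8% of all genes) and 38 without mutant replicate 3 (51.1%), and the counts without control replicates 1, 2 and 3 were 38 (51.9%), 38 (50.6%) and 37 (51.6%). Members higher at an unadjusted p under 0.05 in edgeR numbered 0 without mutant replicate 1 (2.18% of all genes), 9 without mutant replicate 2 (1.62%) and 23 without mutant replicate 3 (1.76%). Without control replicates 1, 2 and 3 they numbered 3 (1.92%), 1 (1.68%) and 1 (1.32%). The smallest adjusted p of any member with one library left out was 0.949 in edgeR, without control replicate 1.

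**Figure D2:**
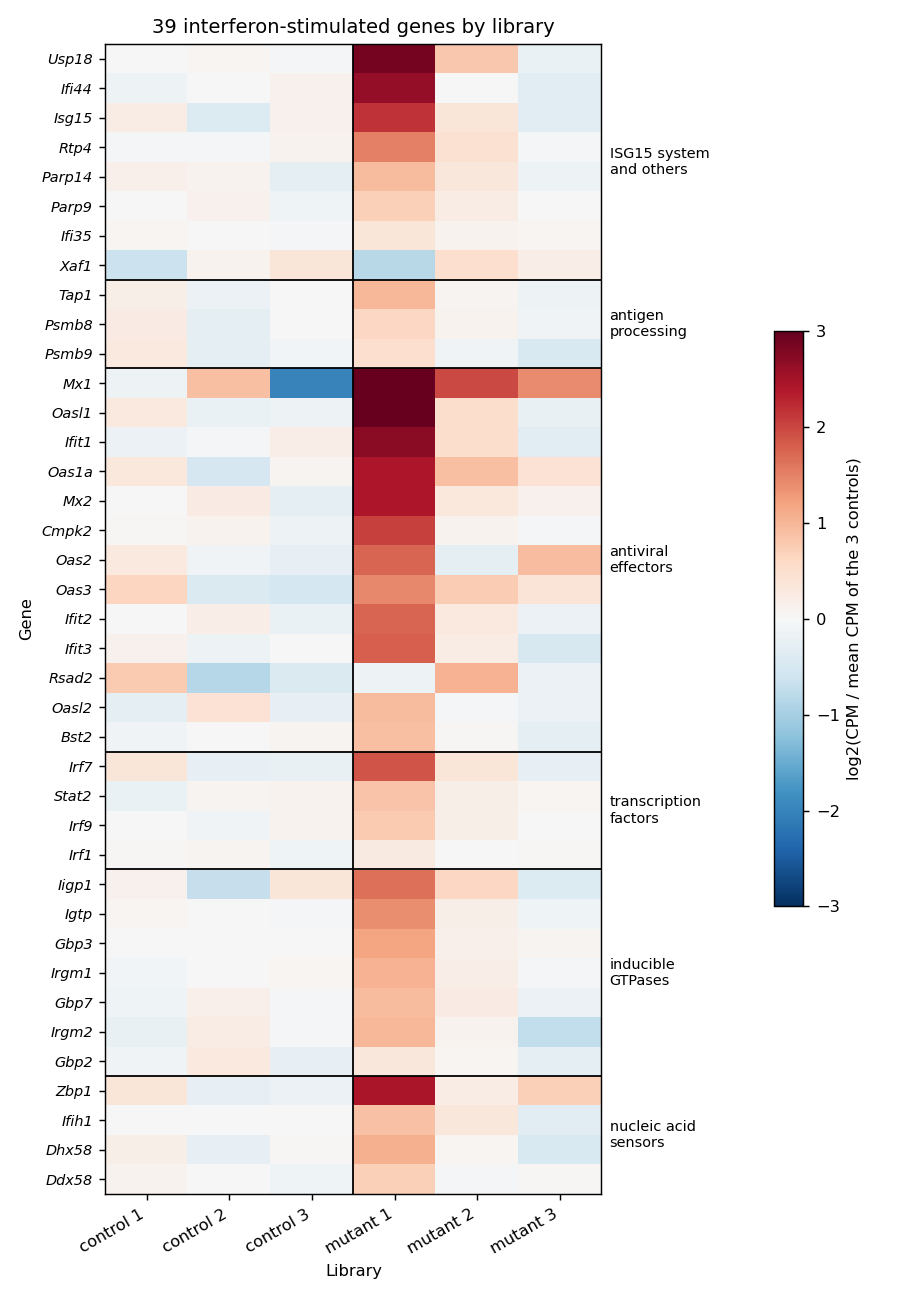
Rows are the 39 genes, grouped by role, and columns the 6 libraries. Colors give the log2 ratio of CPM to the mean of the 3 controls and are cut at 3 in either direction. The column of mutant replicate 1 is red in 37 rows, the exceptions being Rsad2 and Xaf1.

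The libraries were themselves checked. Totals ran from 46180667 to 55728852 counts in the controls and from 32218345 to 53129462 in the mutants, so that the limit a count of 0 allows (3 counts of the normalized library) was 0.0560 to 0.0942 CPM, counting error only. Valve interstitial cell markers (7 genes, among them Col1a1 and Postn) summed to 12210 to 15760 CPM, and endothelial markers (5 genes) to 1191 to 1896 CPM. Mutant replicate 1 was the lowest library in the former list. Control replicate 1 and mutant replicate 1 held Xist at 54.5 and 59.1 CPM and 4 Y-linked genes at 0.672 and 0.560 CPM in sum. Control replicates 2 and 3 held Xist at 0.297 and 0.631 CPM and Y-linked genes at 181 and 183 CPM. Mutant replicates 2 and 3 held both, Xist at 19.7 and 11.7 CPM beside Y-linked genes at 138 and 171 CPM. An alternative that was added once the data had been seen took the share of Xist in the sum of these counts as a covariate, and in it the median log2 fold change of the members was 0.44. The part of sex in the results was not otherwise tested.

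Marker genes of tissues next to the valve also differed in mutant replicate 1. Smooth muscle markers (5 of 5 genes, among them Myh11 and Acta2) summed to 2198 CPM there, against 5511 to 13170 CPM in the other libraries. Cardiac muscle markers (6 of 6) summed to 33300 CPM, against 8961 to 26820 CPM, and erythroid markers (4 of 5 listed) to 1106 CPM, against 2356 to 8844 CPM. By these sums the library was the lowest in smooth muscle and erythroid markers and the highest in cardiac muscle markers, of which Myl2 was highest in control replicate 1. Macrophage markers (7 of 8 listed) summed to 1232, 1101 and 1165 CPM in the controls and 1450, 1589 and 1526 CPM in the mutants. Most of this sum was Lyz2, at 797, 726 and 748 against 994, 1081 and 1059 CPM. Lyz2 had an adjusted p of 0.999 in edgeR and 0.00506 in DESeq2. Lyz2, Cd68 and C1qa were higher in every mutant, while the groups overlapped in Emr1, Csf1r, Mrc1 and Cd14. T and NK cell markers (8 of 8) were at 7.41, 3.24 and 3.46 CPM in the controls and 7.64, 12.9 and 8.26 CPM in the mutants. Cd3e was higher in every mutant, but mutant replicate 1, at 0.618 CPM (32 counts), barely cleared control replicate 2, at 0.613 CPM (31 counts). Ncr1 was lower in every mutant, at 17, 5 and 2 counts in the controls and 1, 1 and 0 in the mutants. In the other genes of this list the groups overlapped. In the same way, controls against mutants, B and plasma cell markers (6 of 6) were at 16.6, 6.25 and 5.41 against 7.41, 37.2 and 21.5 CPM, and neutrophil markers (4 of 5 listed) at 7.97, 4.39 and 4.83 against 3.55, 21.3 and 14.6 CPM. These 3 lists were highest in mutant replicate 2. Within the B and plasma cell list Igj, the joining chain of antibodies, was higher in every mutant, at 0.579, 0.217 and 0.478 against 3.17, 5.92 and 4.05 CPM, with an adjusted p of 0.999 in edgeR and 1.02e-08 in DESeq2. Conventional dendritic cell markers (5 of 5) spanned 21.4 to 35.8 CPM. The sum of the 4 markers of plasmacytoid dendritic cells, known producers of type I interferon, was 1014, 283 and 889.5 against 1142, 684 and 905 CPM, nearly all of it from Cox6a2, which striated muscle also expresses. Of the other 3, Siglech was at 2.91, 2.21 and 1.85 against 1.62, 2.05 and 2.07 CPM, lowest in mutant replicate 1. Ccr9 was at 0.0560, 0.0791 and 0.152 against 0.193, 0.101 and 0.597 CPM and Pacsin1 at 0.224, 0.356 and 0.0217 against 0.444, 1.59 and 2.32 CPM, both highest in mutant replicate 3, and Pacsin1 was higher in every mutant. The part of these markers in the result was not tested, and in bulk tissue more expressing cells and more RNA per cell cannot be told apart.

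**Figure D3:**
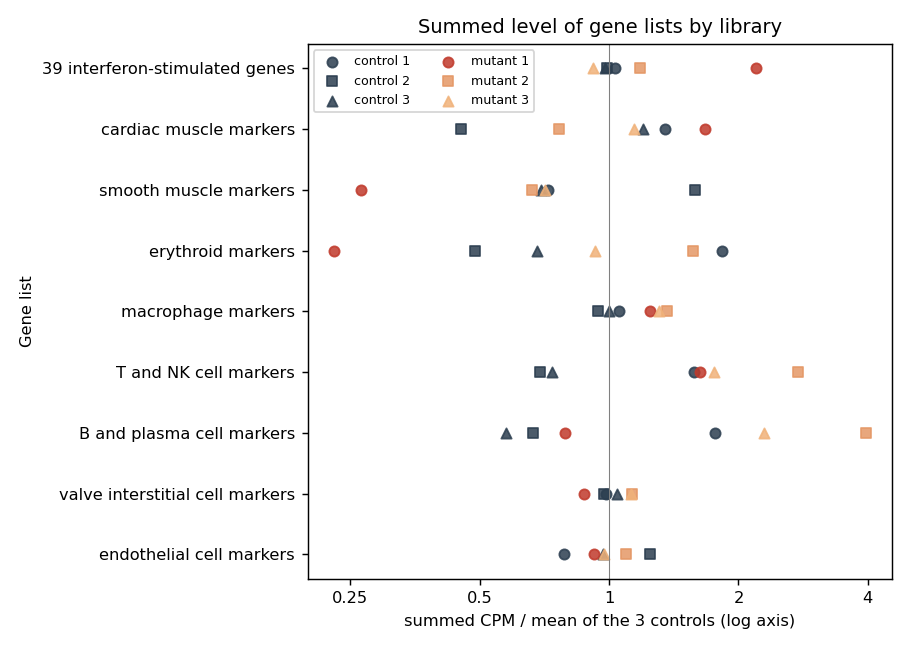
Each row is a list of genes, and each point the summed CPM of that list in 1 library over the mean of the 3 controls, on a log axis. For the interferon-stimulated genes mutant replicate 1 lies to the right of a tight cluster of the other 5 libraries, whereas in smooth muscle and erythroid markers it is the lowest.

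The antiviral effectors, 13 of the 39 genes, act on viral RNA, particles or replication and had the largest median log2 fold change of the 6 roles, 1.02. In mutant replicate 1 they stood at a median of 2.91 times the highest other library. Mx1, a dynamin-like GTPase that blocks influenza viruses, was read at 0.392, 0.811 and 0.109 CPM in the controls and at 7.36, 1.72 and 1.16 CPM in the mutants. All mutants lay above all controls in CPM, although the unscaled counts overlapped, from 5 to 41 in the controls and from 37 to 381 in the mutants. The levels outside mutant replicate 1 were thus low. Mx1 had a log2 fold change of 2.96 ± 0.94 (SE), or 1.71 without mutant replicate 1. Mx2, its neighbor on chromosome 16, was read at 2.28, 2.75 and 1.91 CPM in the controls and 12.4, 2.88 and 2.54 CPM in the mutants, with a log2 fold change of 1.37 ± 0.63 (SE). Mx2 thus differed from the controls mainly in mutant replicate 1, and its log2 fold change without that library was 0.23.

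The protein of Ifit1 binds viral RNA that lacks the cap marks of host RNA. Ifit1 (chromosome 19, 34640871 to 34650009 of GRCm38) was read at 14.7, 16.1 and 19.2 CPM in the controls and 109.8, 23.96 and 13.5 CPM in the mutants. Mutant replicate 1 stood at 4.58 times the highest other library, mutant replicate 2 was above the controls and mutant replicate 3 below them. Its log2 fold change of 1.56 ± 0.72 (SE) was 0.17 without mutant replicate 1. Ifit2 and Ifit3, which lie beside Ifit1, had log2 fold changes of 0.86 ± 0.47 (SE) and 0.84 ± 0.53 (SE), and Ifit3 stood at -0.090 without mutant replicate 1. Mutant replicate 1 held Ifit2 at 84.4 and Ifit3 at 80.5 CPM, against 21.8 to 28.9 and 20.7 to 25.3 CPM in the controls.

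The oligoadenylate synthetases make the second messenger that activates the ribonuclease RNase L. Oas1a (chromosome 5, 120896256 to 120907521) was read at 4.22, 2.39 and 3.59 CPM in the controls and 18.4, 6.33 and 4.58 CPM in the mutants, higher in every mutant. Its log2 fold change was 1.53 ± 0.54 (SE) and 0.68 without mutant replicate 1, with an adjusted p of 0.409 in DESeq2. Oas2 and Oas3 had log2 fold changes of 1.02 ± 0.48 (SE) and 0.93 ± 0.46 (SE). Oas2 was the member in which mutant replicate 2 lay below all controls, at 2.63 CPM, while mutant replicate 3 lay above them, at 5.96 CPM. The related Oasl1 had the largest ratio of mutant replicate 1 to the highest other library, 5.91, with 2.30, 1.64 and 1.67 CPM in the controls and 15.9, 2.68 and 1.60 CPM in the mutants. Oasl2, 11006 bases from Oasl1, stood at a ratio of only 1.43. These near neighbors thus had different ratios, and that difference was not tested.

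Bst2, a membrane tether that holds budding virions, had the highest level per length of the 39 genes in the controls, 53.6 CPM per kilobase of annotated exon. It was read at 45.1, 48.5 and 51.6 CPM in the controls and 90.6, 49.6 and 39.8 CPM in the mutants, with a log2 fold change of 0.31 ± 0.29 (SE) that was -0.11 without mutant replicate 1. Rsad2, which encodes viperin, and Cmpk2, a mitochondrial nucleotide kinase, lie 12752 bases apart on opposite strands of chromosome 12 and had different patterns. Cmpk2 was read at 17.6, 18.4 and 15.3 CPM in the controls and 70.3, 18.3 and 16.8 CPM in the mutants, the pattern of the other members. Rsad2 was read at 63.2, 20.4 and 27.3 CPM in the controls and 33.5, 75.6 and 32.7 CPM in the mutants, with mutant replicate 1 within the controls. The libraries with the highest Rsad2, control replicate 1 and mutant replicate 2, were also those with the highest summed erythroid markers, at 8844 and 7547 CPM, and the part of that in Rsad2 was not tested. The log2 fold change of Rsad2 was 0.36 ± 0.50 (SE), and -0.16 without mutant replicate 2.

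**Figure D4:**
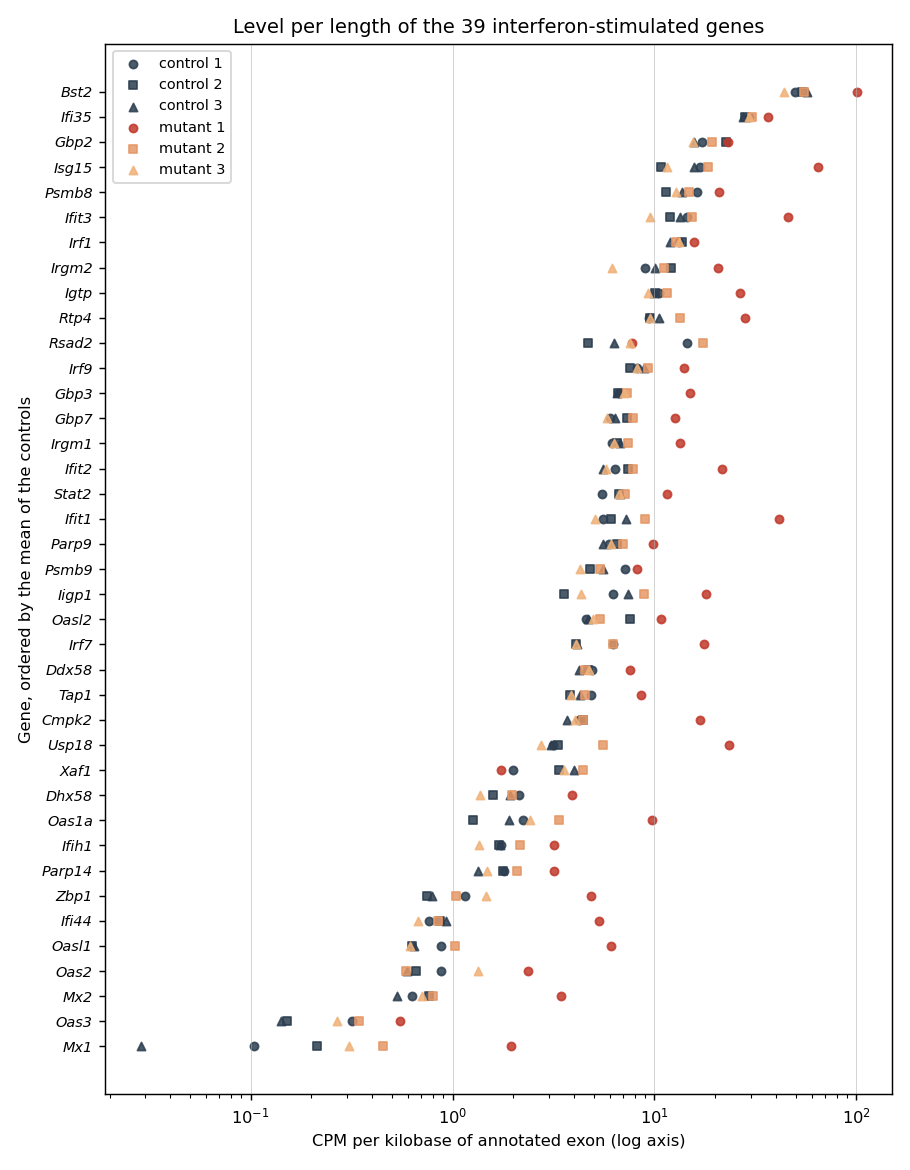
Level per length of each member, as CPM per kilobase of annotated exon on a log axis, with 1 marker for each library and genes in the order of the control mean. The controls span from 0.115 for Mx1 to 53.6 for Bst2, and mutant replicate 1 lies to the right in all genes but Rsad2 and Xaf1.

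Per length, the controls held Bst2, Ifi35 (28.2 CPM per kilobase), Gbp2 (18.5), Isg15 (14.4) and Psmb8 (13.8) at the top, and Mx1 (0.115), Oas3 (0.203) and Mx2 (0.640) at the bottom. Gbp2 and Isg15 spanned 39.3 to 56.7 and 8.13 to 12.7 CPM in the controls before division by length. The order of neighbors such as Isg15, Psmb8, Ifit3 and Irf1 lay within the spread of the controls. The annotated exons of Irf7, 3776 bases, covered its whole span from 141262706 to 141266481 on chromosome 7. The order per length therefore rests in part on the annotation, and that part was not tested. The median ratio of the highest to the lowest control was 1.33 over the members and 1.33 over all genes tested, so that in the median the members varied among the controls about as much as other genes did.

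The ISG15 system and other induced genes made up 8 members. Isg15, a ubiquitin-like protein that is joined to other proteins, was read at 12.7, 8.13 and 11.8 CPM in the controls and 48.7, 13.9 and 8.76 CPM in the mutants. Its log2 fold change of 1.13 ± 0.61 (SE) was 0.062 without mutant replicate 1. Usp18, the protease that removes Isg15 and dampens the type I receptor, was read at 8.81, 9.26 and 8.61 CPM in the controls, a narrow range, and 65.4, 15.6 and 7.69 CPM in the mutants. Mutant replicate 1 and, less so, mutant replicate 2 exceeded the controls, while mutant replicate 3 lay below them. Usp18 had a log2 fold change of 1.74 ± 0.72 (SE) and an unadjusted p of 0.0462 in edgeR, and its log2 fold change was 0.39 without mutant replicate 1. Ifi44, a cytoplasmic protein induced by type I interferon, lay within 4.70 to 5.70 CPM in the controls and was read at 32.6, 5.21 and 4.14 CPM in the mutants. Its log2 fold change of 1.42 ± 0.76 (SE) turned to -0.16 without mutant replicate 1. Ifi35 (chromosome 11, 101448407 to 101458698) was read at 50.6, 48.3 and 47.2 CPM in the controls and 62.7, 52.4 and 50.98 CPM in the mutants, higher in every mutant, but by a log2 fold change of only 0.18 ± 0.11 (SE). Rtp4, Parp9 and Parp14 had log2 fold changes of 0.79 ± 0.37 (SE), 0.35 ± 0.19 (SE) and 0.46 ± 0.28 (SE), each with its highest level in mutant replicate 1.

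Xaf1, an interferon-induced antagonist of an apoptosis inhibitor, was the other exception. It was read at 9.35, 15.7 and 18.7 CPM in the controls and 8.15, 20.8 and 16.8 CPM in the mutants. Its lowest levels were in mutant replicate 1 and control replicate 1, the libraries with Xist and next to no Y-linked reads. In 10.4% of all genes tested these 2 libraries were both below the other 4, and among the 39 members Xaf1 was the only one. Xaf1 had a log2 fold change of 0.063 ± 0.39 (SE), which was -0.18 without control replicate 1, -0.23 without mutant replicate 2 and -0.012 without mutant replicate 3.

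Of the nucleic acid sensors, Ddx58 and Ifih1 recognize viral RNA in the cytoplasm, Dhx58 modulates both and Zbp1 binds left-handed nucleic acids and can trigger cell death. Zbp1 (chromosome 2, 173206612 to 173218923) was read at 4.05, 2.65 and 2.78 CPM in the controls and 17.2, 3.67 and 5.18 CPM in the mutants. It stood at 3.31 times the highest other library in mutant replicate 1, and the groups overlapped through mutant replicate 2. The log2 fold change of Zbp1 was 1.46 ± 0.58 (SE), its unadjusted p 0.0411 in edgeR, and the log2 fold change was 0.48 without mutant replicate 1. Ddx58 was read at 34.7, 33.01 and 29.9 CPM in the controls and 53.2, 31.98 and 33.5 CPM in the mutants, with a log2 fold change of 0.28 ± 0.21 (SE), or 0.0078 without mutant replicate 1. Ifih1 had controls within 13.8 to 14.1 CPM and 25.9 CPM in mutant replicate 1, and Dhx58 had 12.8 CPM there against 5.20 to 6.94 CPM in the controls. In mutant replicate 3 both lay below all controls, at 10.99 and 4.49 CPM.

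The interferon-inducible GTPases, many of them strongly induced by interferon gamma, were 7 members with a median log2 fold change of 0.49. All 7 were highest in mutant replicate 1, at a median of 1.81 times the highest other library, a smaller ratio than that of the antiviral effectors, though the roles were not compared by a test. Gbp3 (chromosome 3, 142560026 to 142573209) was read at 21.9, 21.5 and 21.4 CPM in the controls and 49.2, 23.8 and 22.9 CPM in the mutants, higher in every mutant, with a log2 fold change of 0.57 ± 0.30 (SE). The controls lay so close together that mutant replicate 3 cleared them by about 1 CPM. Gbp2, in the same cluster, was read at 43.3, 56.7 and 39.3 CPM in the controls and 58.4, 48.4 and 38.8 CPM in the mutants. It barely stood out in mutant replicate 1, 1.03 times the next library, and its log2 fold change was 0.065 ± 0.19 (SE). Iigp1 had the widest range of the group, with 36.4, 20.7 and 42.9 CPM in the controls and 105, 51.7 and 25.1 CPM in the mutants.

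Igtp, Irgm1 and Irgm2, regulators of autophagy and vacuole breakdown, had log2 fold changes of 0.64 ± 0.37 (SE), 0.49 ± 0.27 (SE) and 0.29 ± 0.40 (SE), and the guanylate-binding protein gene Gbp7 one of 0.41 ± 0.27 (SE). Igtp was read at 53.6 CPM in mutant replicate 1 and 20.1 to 21.3 CPM in the controls. The annotated spans of Igtp and Irgm2 overlap on the same strand by 7974 bases, and how Cuffdiff divided shared fragments between them is uncertain. Members with near-identical copies, such as the Gbp, Ifit and Oas families, carry the same doubt. In these counts the fragments of the alpha globin copies Hba-a1 and Hba-a2 went nearly all to one copy in some libraries and to the other in the rest.

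Antigen processing genes had the smallest median log2 fold change of the 6 roles, 0.24. Psmb8 and Psmb9 encode catalytic subunits of the immunoproteasome and Tap1 a subunit of the peptide transporter, and all are neighbors in the MHC on chromosome 17. Tap1 was read at 26.4, 20.8 and 23.5 CPM in the controls and 46.9, 24.8 and 21.3 CPM in the mutants, with a log2 fold change of 0.40 ± 0.30 (SE). Psmb8 was read at 54.95, 38.4 and 46.2 CPM in the controls and 70.99, 50.1 and 43.4 CPM in the mutants, with a log2 fold change of 0.24 ± 0.21 (SE). Psmb9 had one of 0.033 ± 0.27 (SE), which was -0.27 without mutant replicate 1. The spans of Psmb9 and Tap1 overlap by 212 bases on opposite strands, where fragments cannot be told apart unless strand was used in the counting, which is not stated. In all 3 genes mutant replicate 1 was the highest library, by 1.15 to 1.77 times the next.

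The transcription factors that carry the signal were 4 members. Irf7, the factor that amplifies type I interferon production, was read at 23.5, 15.3 and 15.7 CPM in the controls and 66.8, 23.5 and 15.4 CPM in the mutants. Irf7 had a log2 fold change of 0.96 ± 0.52 (SE), or 0.10 without mutant replicate 1. Stat2 and Irf9, which are part of the ISRE-binding complex, had log2 fold changes of 0.41 ± 0.22 (SE) and 0.36 ± 0.20 (SE), and mutant replicate 1 held them at 68.3 and 75.6 CPM, against 32.7 to 40.2 and 40.8 to 47.6 CPM in the controls. Irf1, a factor induced by interferon gamma among other signals, was read at 52.8, 54.4 and 47.5 CPM in the controls and 62.2, 51.1 and 52.5 CPM in the mutants, the smallest log2 fold change of the 4, 0.099 ± 0.11 (SE). Every adjusted p of these members was 0.999 in the edgeR test.

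**Figure D5:**
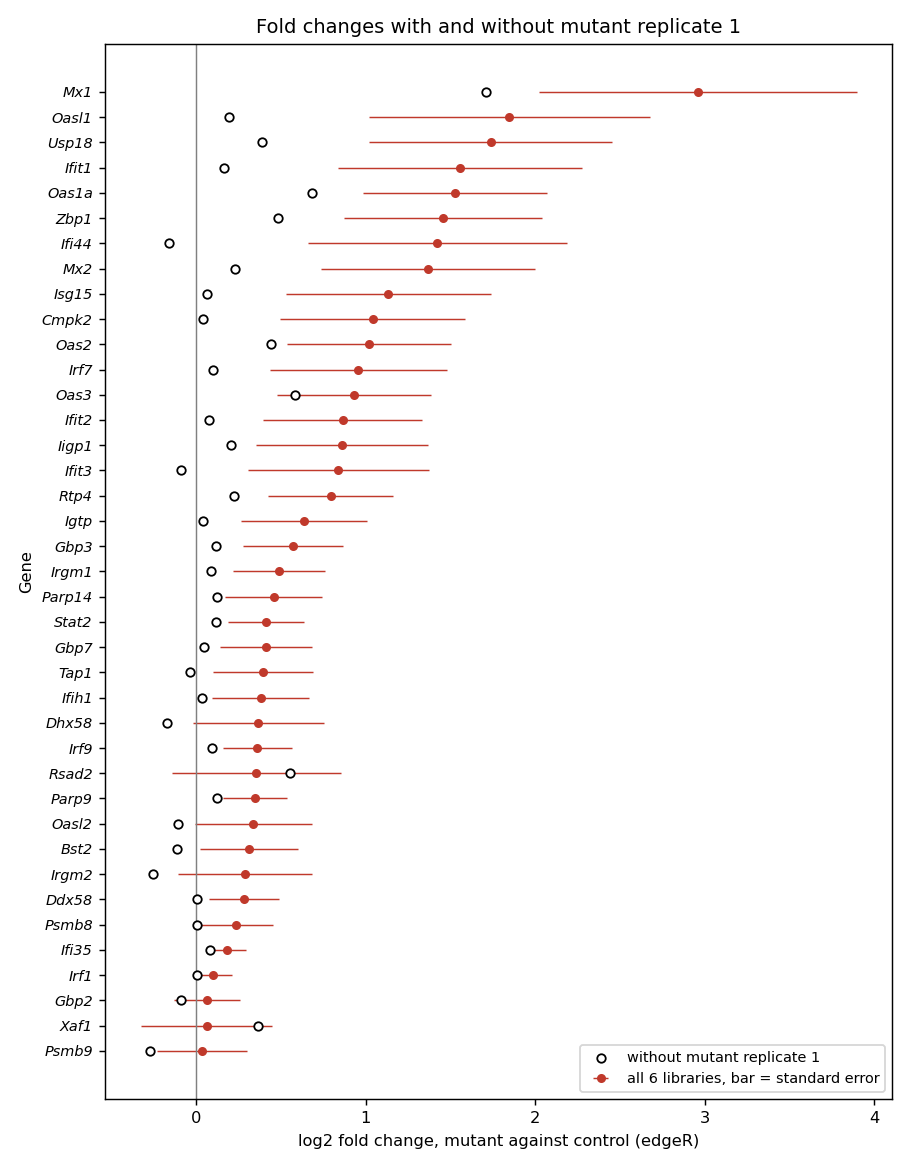
Log2 fold change of each member, mutants against controls, with all 6 libraries (filled, bars are standard errors) and without mutant replicate 1 (open). With all libraries the values run from 0.033 for Psmb9 to 2.96 for Mx1, and without that library 9 members lie below 0 and 4 (Mx1, Oas1a, Oas3 and Rsad2) above 0.5, Rsad2 having stood at 0.36 with all libraries.

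Mutant replicate 2 shared the direction to a small degree. It lay above all controls in 24 of the 39 members and below all in 1 (Oas2), where 23.6% and 22.3% of all genes tested did. For mutant replicate 1 the counts were 37 above and 1 below (Xaf1), where 27% and 27.8% of all genes did, and for mutant replicate 3 they were 6 above and 13 below, where 24.7% and 24.9% did. The 3 mutants were therefore not alike. Mutant replicate 3 lay above all controls in Mx1, Oas1a, Oas2, Zbp1, Ifi35 and Gbp3.

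A wider list of interferon pathway genes had 132 symbols, of which 121 were listed in the counts and 100 could be tested. In edgeR 0 of the 100 had an adjusted p under 0.05, 8 were higher and 0 lower at an unadjusted p under 0.05 (1.59% and 1.86% of all genes tested), and the median log2 fold change was 0.15. Of these genes 10 were higher and 2 lower in every mutant (4.04% and 4.83% of all genes tested), and 57 were highest in mutant replicate 1, as were 19.5% of all genes tested. The ligands were at or near 0. Of 17 interferon genes listed, 12 had no count in any library, and all 17 together had 8, 3 and 1 counts in the controls and 14, 0 and 4 in the mutants. Ifnb1 had 0 counts in all 3 controls, which allows up to 0.0652 CPM in the shallowest of them, and 7, 0 and 3 counts in the mutants. Ifng had 5, 3 and 0 counts in the controls and 1, 0 and 0 in the mutants, and no ligand had enough counts to be tested. In mutant replicate 1 the 7 counts of Ifnb1 were above the 3 that a count of 0 allows.

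The receptors were expressed in all libraries. Ifnar1 was read at 75.3, 81.1 and 72.4 CPM in the controls and 85.1, 81.4 and 83.3 CPM in the mutants, higher in every mutant, with a log2 fold change of 0.13 ± 0.087 (SE). Ifnar2, its partner, was read at 88.1, 92.7 and 94.7 against 88.5, 95.3 and 95.8 CPM, given like the next genes as controls against mutants, a log2 fold change of 0.022 ± 0.086 (SE). Of the interferon gamma receptor chains, Ifngr1 was read at 145, 149 and 144 against 135, 143 and 153 CPM, a log2 fold change of -0.024 ± 0.093 (SE) and Ifngr2 at 214, 149 and 199 against 211, 173 and 151 CPM, a log2 fold change of -0.072 ± 0.18 (SE). Il10rb, a chain that the lambda interferon receptor shares, was read at 159, 114 and 128 against 169, 137 and 145 CPM, a log2 fold change of 0.17 ± 0.15 (SE). In none of these genes did mutant replicate 1 exceed the next library by more than 1.06 times.

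Of the receptor-bound kinases, Jak1 was read at 262, 249 and 234 CPM in the controls and 258, 256 and 213 CPM in the mutants, Jak2 at 49.5, 71.3 and 47.2 against 42.8, 56.5 and 56.7 CPM and Tyk2 at 41.3, 43.5 and 36.3 against 38.6, 44.5 and 34.8 CPM. Their log2 fold changes were -0.036 ± 0.12 (SE), -0.11 ± 0.19 (SE) and -0.038 ± 0.13 (SE). Stat3, which carries the signal of other cytokines too, was read at 274, 264 and 271 against 309, 249.6 and 238 CPM, with a log2 fold change of -0.022 ± 0.13 (SE). Of 7 inhibitors, the phosphatase gene Ptpn11 was higher in every mutant, at 58.4, 53.6 and 60.4 CPM in the controls and 62.3, 71.3 and 111 CPM in the mutants. Pias1, at 71.8, 82.1 and 80.7 against 69.6, 70.4 and 71.5 CPM, and Trim24, at 24.5, 27.98 and 27.2 against 22.5, 24.2 and 23.04 CPM, were lower in every mutant. Ptpn11 was highest in mutant replicate 3, and the other two were lowest in mutant replicate 1. Their log2 fold changes were 0.51 ± 0.21 (SE), -0.15 ± 0.091 (SE) and -0.19 ± 0.11 (SE).

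Of 68 further induced genes tested, 50 were highest in mutant replicate 1. Cxcl10, a chemokine for activated T cells, was read at 0.299, 0.910 and 0.152 CPM in the controls and 13.3, 0.835 and 0.408 CPM in the mutants. Mutant replicate 1 was 14.6 times the highest other library, the largest such ratio of all genes tested. The log2 fold change of Cxcl10 was 3.42 ± 1.39 (SE), or 0.46 without that library. Lgals3bp, a secreted glycoprotein, was read at 64.2, 66.7 and 70.3 CPM in the controls and 168, 95.2 and 79.8 CPM in the mutants, higher in every mutant, with a log2 fold change of 0.77 ± 0.27 (SE). Sp110, a nuclear body protein, was read at 22.5, 23.7 and 23.3 against 35.5, 32.4 and 24.96 CPM, a log2 fold change of 0.42 ± 0.15 (SE), also higher in every mutant. In its relative Sp100, at 30.8, 28.99 and 28.3 against 54.97, 41.8 and 29.5 CPM, a log2 fold change of 0.52 ± 0.22 (SE), the groups overlapped.

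Of the 68, 8 were higher in every mutant, where 4.04% of all genes tested were. Besides Lgals3bp and Sp110 these were Slfn1, Apol9a, Oas1g, Samhd1, Ifitm3 and Casp1. Slfn1, of the Schlafen family of growth regulators, was read at 1.06, 0.237 and 0.348 CPM in the controls and 2.70, 2.30 and 1.22 CPM in the mutants, and Apol9a, an apolipoprotein L, at 1.32, 1.997 and 0.848 against 6.10, 2.28 and 2.35 CPM. Oas1g, a close relative of Oas1a whose reads may be shared with it, was read at 1.03, 0.949 and 1.07 against 4.17, 1.26 and 1.10 CPM. In Apol9a and Oas1g mutant replicate 1 was well above the rest, while in Slfn1 mutant replicate 2 was close to it. Samhd1, which depletes nucleotides, was read at 21.01, 20.6 and 17.2 against 28.9, 22.2 and 21.4 CPM, Ifitm3, which blocks virus entry, at 309, 335 and 341 against 464, 367 and 344 CPM, and Casp1, the inflammasome protease, at 4.94, 4.49 and 4.52 against 5.39, 5.44 and 5.78 CPM. The 6 log2 fold changes were 1.91 ± 0.65 (SE), 1.37 ± 0.52 (SE), 1.11 ± 0.56 (SE), 0.31 ± 0.16 (SE), 0.25 ± 0.15 (SE) and 0.25 ± 0.18 (SE). Slfn9, at 1.83, 2.39 and 2.76 against 8.26, 5.67 and 2.01 CPM, and Ms4a4c, at 1.25, 0.672 and 0.848 against 6.33, 1.999 and 0.879 CPM, had log2 fold changes of 1.20 ± 0.50 (SE) and 1.74 ± 0.72 (SE) with groups that overlapped through mutant replicate 3. Without mutant replicate 1 the log2 fold changes were 0.38 for Lgals3bp, 0.31 for Sp110, 0.28 for Sp100, 1.67 for Slfn1, 0.73 for Apol9a, 0.22 for Oas1g, 0.16 for Samhd1, 0.11 for Ifitm3, 0.27 for Casp1, 0.73 for Slfn9 and 0.64 for Ms4a4c. The adjusted p from edgeR was 0.999 for each gene named here.

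Counted over all genes tested, 84 genes (0.547%) were at least 2-fold above every other library in mutant replicate 1. Of these 17 were among the 39 members and 10 among the other pathway genes. In the other 5 libraries between 20 and 200 genes (0.13% to 1.3%) stood out in that way, and 0 of the 39 members was among them. The 17 members were Oasl1, Ifi44, Ifit1, Mx2, Mx1, Usp18, Cmpk2, Isg15, Zbp1, Ifit3, Oas1a, Irf7, Ifit2, Igtp, Rtp4, Gbp3 and Iigp1. Oasl1 and Ifi44 had the largest ratios of mutant replicate 1 to the highest other library, 5.91 and 5.72. Their promoters held no ISRE core, nor did those of Cmpk2, Irf7 and Ifit2. Ifit1, Isg15, Ifit3, Oas1a, Igtp and Gbp3 held it, and the rest of the 17 had no promoter entry. The 16 members with an ISRE core had a median ratio of mutant replicate 1 to the highest other library of 1.73, and the 13 with a promoter but without it had 1.51, with ranges that overlapped (0.443 to 4.58 and 0.391 to 5.91).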

How the data were processed

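Total RNA of aortic valves, 3 control and 3 mutant libraries, was sequenced by the authors on an Illumina HiSeq. The deposited matrix holds estimated counts per gene symbol from the authors' Cuffdiff run on mm10 alignments, without scaling for depth. TopHat2 2.0.13, Bowtie2 2.2.1 and Cuffdiff 2.1.1 are named in the submitters' processing notes. Values that were not whole (1.66% to 1.87% in each library) were rounded. Each column was assigned to its group through the label of the sample it names.

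The main fit used edgeR 4.0.16 in R 4.3.3: TMM scaling, at least 10 counts in 3 or more libraries, and the quasi-likelihood F test between the groups, adjusted by Benjamini-Hochberg over all genes tested (threshold 0.05). A standard error is the fold change divided by the root of its F. The edgeR and DESeq2 fits were also run on simulated data. The outcome is not given here, and no result rests on it. Other settings were DESeq2 1.42.0, upper-quartile scaling, all counts kept without a minimum, a minimum mean count of 100, voom with quality weights in limma 3.58.1, a block for the replicate number, and each library omitted in turn. Gene positions and exon lengths are those of the GENCODE annotation of GRCm38, in which 39 of 39 symbols were found, and promoter sequences are those of RefSeq.

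The members, pathway lists and marker lists were chosen with earlier results of these data known. Values in every library were given by rule for members with non-overlapping groups or an unadjusted p under 0.05, for the most highly expressed member per length and the most variable member of each role, for receptors and JAK-STAT genes other than 1 that is not reported here, and for other pathway genes with such a p or such groups. Mx2, Ifit1, Oasl1, Cmpk2, Rsad2, Isg15, Ifi44 and Xaf1 were added after their values were seen.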

Additional observations from a re-analysis of the deposited data

How the results depend on the processing

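Genes called over all genes tested numbered 26 in DESeq2 and 0 in edgeR, and 0 of the 39 members were called in any of the alternatives. The median log2 fold change of the members was 0.49, 0.49, 0.49, 0.46, 0.36 and 0.41 with DESeq2, upper-quartile normalization, no filter, a mean count of at least 100, limma-voom with quality weights and the replicate block, against 0.49. With single libraries omitted it ran from 0.088 (without mutant replicate 1) to 0.69, and the members higher in every mutant numbered from 4 without mutant replicate 1 (9.83% of all genes) to 22 without mutant replicate 3 (8.11%), against 4 with all libraries (4.04%). Same-numbered controls and mutants deviated together with correlations of 0.373, 0.171 and 0.0194, so that the numbers could not be taken to pair the libraries. Not every library correlated best with its own number, and the block changed no call. Psmb9 changed sign to -0.098 in limma-voom with quality weights, to -0.0011 with the replicate block and to -0.040 with the share of Xist as a covariate, and in limma-voom Ifngr1 was 0.0048 and Jak2 0.053. The cause was not tested. With single libraries omitted, 18 genes changed sign at least once, their log2 fold changes ranging from -0.090 to 1.21 for Ifit3, -0.11 to 0.62 for Oasl2, -0.16 to 0.99 for Rsad2, -0.16 to 1.85 for Ifi44, -0.17 to 0.65 for Dhx58, -0.11 to 0.54 for Bst2, -0.090 to 0.24 for Gbp2, -0.26 to 0.62 for Irgm2, -0.27 to 0.22 for Psmb9, -0.035 to 0.60 for Tap1, -0.23 to 0.37 for Xaf1, -0.0076 to 0.058 for Ifnar2, -0.072 to 0.019 for Ifngr1, -0.21 to 0.033 for Ifngr2, -0.083 to 0.049 for Jak1, -0.22 to 0.11 for Jak2, -0.14 to 0.042 for Tyk2 and -0.14 to 0.050 for Stat3. The interferon ligands had too few counts to be tested, at most 14 over all of them in any library.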

Other observations

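Of the 84 genes at least 2-fold above every other library in mutant replicate 1, 57 were on none of the interferon lists. The genes named here were chosen after their values were seen. Some belong to families that interferon also induces, among them the MHC class I related H2-Q6, at 25.4 CPM in mutant replicate 1 and at most 7.61 CPM elsewhere, and Gm12250 and Gm4951, at 10.8 and 17.5 CPM against at most 3.04 and 5.82 CPM. Cntn2, a marker of the cardiac conduction system, was at 66.8 CPM in mutant replicate 1 and at most 14.1 CPM in the other libraries. The calcium channel gene Cacna1h was at 53.96 against at most 16.2 CPM, the Wnt antagonist Sfrp5 at 54.8 against at most 13.3 CPM, and the potassium channel subunit Kcne1 at 31.7 against at most 13.8 CPM. These genes too were highest in that library.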
